A study of Homo sapiens with 12 samples.

Results

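CXCL1, CXCL2, CXCL3, CXCL5, CXCL6 and CXCL8 are 6 of the 58735 genes counted by RNA-seq in HLE-B3, an immortalized human cell line from the lens epithelium. These chemokine genes were selected by their gene names, with earlier results of the same libraries known, so their levels and fold changes are given as a description and no p value is printed for them. The 12 libraries form 4 groups of 3 biological replicates. Untreated WT and ATG7 KO cells were collected at 0 h, and H2O2-treated WT and ATG7 KO cells were collected after 12 h with 200 μM H2O2. With untreated cells labelled 0 h, an effect of H2O2 and of 12 h in culture cannot be told apart. The ATG7 KO cells were made with a Cas9 and sgRNA vector, puromycin selection and picking of single clones. The paper checked the picked clones for the deletion by western blot. Which clones were sequenced is not given in the sources used here. Differences between ATG7 KO and WT cells can therefore be those of a clone. The replicates are labelled as biological, and fewer cells that express a gene cannot be told apart from less RNA per cell in such bulk samples.

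The 6 genes encode small secreted proteins of the CXC chemokine family that carry the glutamate-leucine-arginine motif in front of the CXC cysteines and attract neutrophils through the receptors CXCR1 and CXCR2. Their mRNAs are known to be short-lived and to be induced by interleukin 1 and tumour necrosis factor through NF-κB, with AP-1 and C/EBP factors acting beside it on CXCL8. The normal lens holds no blood vessels and no resident neutrophils, and lens epithelial cells are its only dividing cells.

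All 6 genes lie in 1 cluster of 359 kb on chromosome 4 (GRCh38, 73740506 to 74099293). CXCL8, CXCL6 and CXCL1 are read on the plus strand and CXCL5, CXCL3 and CXCL2 on the minus strand. For each gene, RefSeq gives a promoter window of 300 bases on GRCh38.p14, from 250 bases before to 50 bases after its start, and all 6 genes had a match. The palindromic κB-type letters GGAANTTCC occurred once in each of the 6 windows, starting between 77 and 91 bases before the RefSeq start. Of the 35116 promoter windows of that length, 0.965% held these letters on either strand. The 30 bases around each match are shown because the position and the letters were common to all members while the levels below were not, with the κB-type letters in capitals, 5′ to 3′ on the strand of the gene.
CXCL8 (chr4:73740468-73740497, plus strand): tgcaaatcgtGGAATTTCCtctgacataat
CXCL6 (chr4:73836579-73836608, plus strand): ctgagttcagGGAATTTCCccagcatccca
CXCL5 (chr4:73998748-73998777, minus strand): atgagttcagGGAATTTCCccagcatccca
CXCL1 (chr4:73869305-73869334, plus strand): tggaactccgGGAATTTCCctggcccgggg
CXCL2 (chr4:74099253-74099282, minus strand): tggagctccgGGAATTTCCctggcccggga
CXCL3 (chr4:74038748-74038777, minus strand): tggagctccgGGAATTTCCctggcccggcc
The match was GGAATTTCC in every gene, and the flanks fell into the pair CXCL5 and CXCL6, the trio CXCL1, CXCL2 and CXCL3, and CXCL8 alone. The gene starts in the deposited annotation differ from those of RefSeq. The match lay 28 bases before that start in CXCL8 and 78 bases before it in CXCL1, but 12, 21, 40 and 92 bases past it, inside the annotated gene, in CXCL5, CXCL2, CXCL3 and CXCL6. The AP-1-type letters TGANTCA occurred only in the window of CXCL8, 137 bases before its RefSeq start and as TGACTCA, and 7.71% of all windows held them on either strand. A match of letters is a description of the window and was not tested as a binding site.

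The coding sequences fell into the same sets. In the GENCODE release 29 transcript with the longest coding sequence, each gene had 4 exons. The coding nucleotides were 94.4% identical between CXCL2 and CXCL3, 93.5% between CXCL1 and CXCL2, 90.7% between CXCL1 and CXCL3 and 87.5% between CXCL5 and CXCL6, whereas CXCL8 was between 48.7% and 54.2% identical to the others. Reads could therefore be exchanged between paralogs. Of the stretches of 50 bases in these transcripts, 5.73% in CXCL1, 9.24% in CXCL2 and 5.26% in CXCL3 also occurred in another of these 3 genes. No stretch of CXCL6 or CXCL8 occurred in another gene, and 1.12% of those of CXCL5 did, in GLYR1. How reads that fit several genes were counted is not given in the sources used here, so the values of CXCL1, CXCL2 and CXCL3 relative to each other are uncertain. The size of this uncertainty was not tested, and these shares do not measure it.

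Between 15602183 and 17659496 reads were counted on genes in each library. The targeted gene was examined first. ATG7 mRNA lay between 2.21 and 2.81 FPKM in untreated WT cells and between 3.42 and 3.78 FPKM in untreated ATG7 KO cells, and with H2O2 between 1.91 and 1.99 FPKM in WT and between 2.11 and 2.35 FPKM in ATG7 KO cells, so its mRNA was not lower in the libraries labelled ATG7 KO and does not check that label. Of 12 lens epithelial markers, 9 stayed at or below a mean of 1 FPKM in every group, among them FOXE3, PROX1, SOX2, CDH1 and CRYAA. SIX3, PAX6 and CRYAB did not, and SIX3 was the highest at 3.06 ± 0.13 FPKM (SD, n = 3) in untreated WT cells. PAX6 had 1.27 ± 0.0741 FPKM in untreated WT and 1.02 ± 0.384 FPKM in untreated ATG7 KO cells. CRYAB was highest in treated WT cells at 1.65 ± 0.292 FPKM. The 12 leukocyte markers summed to between 1.998 and 3.43 FPKM in all libraries. Of these, only CD14 and LYZ had a mean above 1 FPKM in any group. Their highest means were 1.80 ± 0.250 FPKM in untreated ATG7 KO cells for CD14 and 1.29 ± 0.267 FPKM in untreated WT cells for LYZ. PTPRC had at most 0.12 FPKM and MPO at most 0.13 FPKM in any library, whereas ITGAM reached 0.902 FPKM and CSF1R 0.998 FPKM. The 6 endothelial markers summed to between 0.245 and 1.02 FPKM. The 9 fibroblast markers, mostly COL1A1, summed to between 654 and 686 FPKM in untreated and between 294 and 311 FPKM in treated WT cells, and to between 393 and 543 FPKM in untreated and between 266 and 275 FPKM in treated ATG7 KO cells, and their part in the results was not tested. Untreated ATG7 KO replicate 1 stood apart, with a mean correlation of 0.974 with its own group across genes, against 0.983 for replicates 2 and 3 and between 0.991 and 0.992 in the other groups, so the levels and comparisons of the chemokine members and the counts of the gene lists that use this group are also given without it.

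The levels are given first in FPKM, a read count scaled by gene length and library size, which allows genes to be compared. CXCL8, or interleukin 8, which binds both receptors, was the most abundant member in every group. It had 56.2, 54.4 and 47.3 FPKM in untreated WT cells and 729, 762 and 706 FPKM in H2O2-treated WT cells. In ATG7 KO cells it was 749, 393 and 431 FPKM untreated and 1058, 1028 and 1017 FPKM with H2O2. The lowest untreated ATG7 KO library was thus far above every untreated WT library, replicate 1 of that group reached the range of the treated WT cells, and the treated ATG7 KO cells were above all other libraries.

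CXCL6, a close paralog of CXCL5 that signals through both receptors, showed another order. It stood at 12.8, 12.2 and 10.5 FPKM in untreated WT cells and at 13.9, 13.4 and 20.3 FPKM in H2O2-treated WT cells. Untreated ATG7 KO cells had 221, 134 and 133 FPKM and treated ATG7 KO cells 100.2, 103 and 103 FPKM. Both WT groups were low, both ATG7 KO groups were high without overlap, and within ATG7 KO cells the untreated libraries were the higher ones.

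CXCL5, which acts mainly through CXCR2, had 2.94, 2.999 and 2.04 FPKM in untreated WT cells, and H2O2-treated WT cells had 10.3, 9.32 and 12.0 FPKM. In ATG7 KO cells the values were 46.1, 34.0 and 34.8 FPKM untreated and 97.2, 99.4 and 97.6 FPKM with H2O2. All 4 groups were separate, as they were for CXCL6, and every ATG7 KO library exceeded every WT library, treated or not.

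CXCL2 and CXCL3, the GROβ and GROγ attractants that signal through CXCR2, ran side by side. CXCL2 had 4.13, 4.46 and 3.98 FPKM in untreated and 42.2, 43.8 and 45.9 FPKM in treated WT cells, against 31.9, 20.4 and 22.5 FPKM in untreated and 55.7, 47.8 and 50.8 FPKM in treated ATG7 KO cells. CXCL3 had 1.76, 2.01 and 2.26 FPKM in untreated and 22.1, 22.1 and 23.1 FPKM in treated WT cells, against 11.9, 7.31 and 7.06 FPKM in untreated and 26.6, 23.1 and 25.3 FPKM in treated ATG7 KO cells. For both genes the untreated WT cells were lowest, the untreated ATG7 KO cells lay in between and the treated groups were highest. The treated groups overlapped for CXCL3 and were next to each other for CXCL2.

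CXCL1, or GROα, the remaining member of the trio, had the lowest level with H2O2. Its values were 1.90, 1.59 and 1.74 FPKM in untreated and 4.14, 4.51 and 4.44 FPKM in treated WT cells, and 16.7, 10.5 and 11.3 FPKM in untreated and 9.69, 7.70 and 8.76 FPKM in treated ATG7 KO cells. Its 4 groups did not overlap and stood in the same order as those of CXCL6, with untreated ATG7 KO cells highest. The values rest on few reads, between 38 and 43 per library in untreated WT cells.

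**Figure D1:**
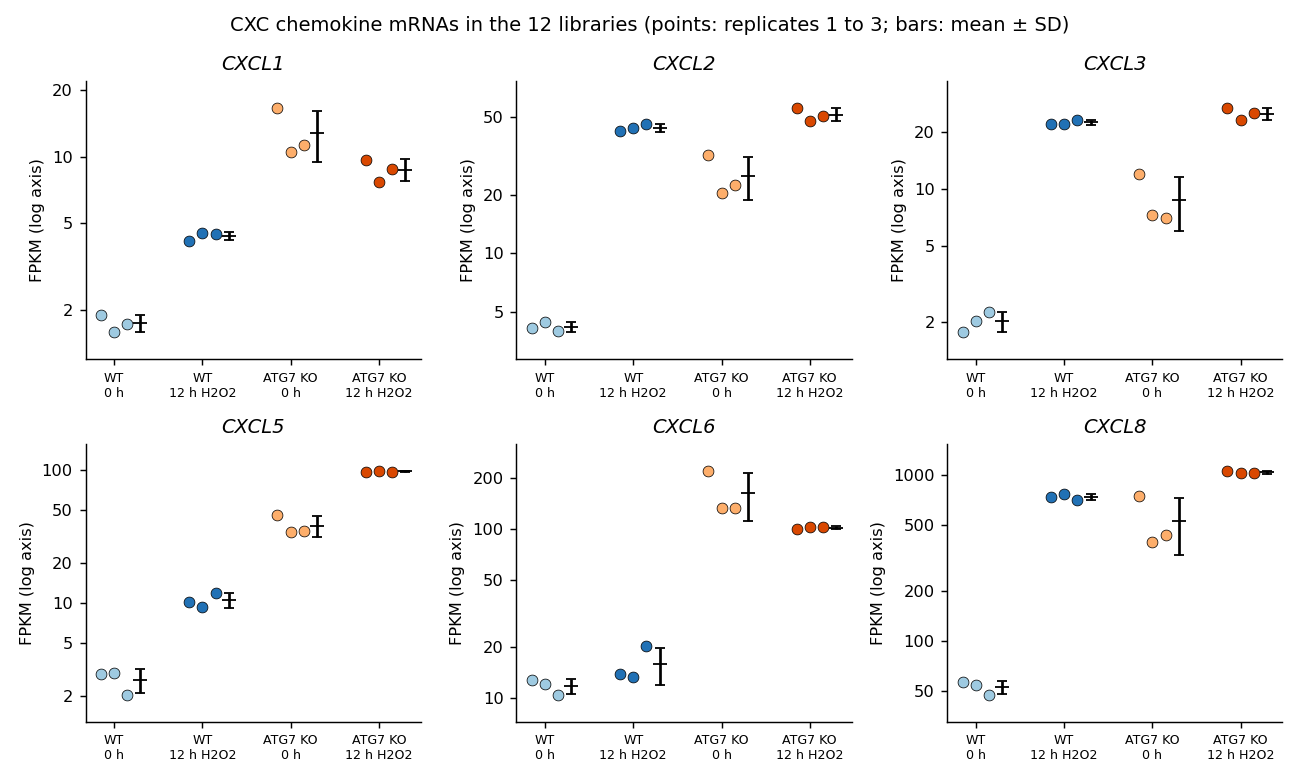
FPKM (log axis, a separate scale for each gene) of the 6 CXC chemokines in the 12 libraries, with the 3 replicates of each group as points and the mean ± SD beside them. The 4 groups do not overlap for CXCL1, CXCL2, CXCL5 and CXCL6, CXCL1 and CXCL6 are highest in untreated ATG7 KO cells, and CXCL2, CXCL3, CXCL5 and CXCL8 have their highest mean in treated ATG7 KO cells. Untreated ATG7 KO replicate 1 is the highest point of its group in every panel.

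The order of the 6 genes changed between groups. In untreated WT cells it ran from CXCL8 (52.7 ± 4.73 FPKM, SD, n = 3) over CXCL6 (11.8 ± 1.18), CXCL2 (4.19 ± 0.245) and CXCL5 (2.66 ± 0.537) to CXCL3 (2.01 ± 0.250) and CXCL1 (1.75 ± 0.155), where CXCL5 overlapped CXCL3 and CXCL3 overlapped CXCL1. With H2O2, WT cells had CXCL8 (732 ± 28.1 FPKM), CXCL2 (44.0 ± 1.86), CXCL3 (22.5 ± 0.588), CXCL6 (15.9 ± 3.86), CXCL5 (10.5 ± 1.36) and CXCL1 (4.36 ± 0.197), and no neighbours in that order overlapped. Untreated ATG7 KO cells had CXCL8 (524 ± 195 FPKM), CXCL6 (163 ± 50.9), CXCL5 (38.3 ± 6.78), CXCL2 (24.9 ± 6.08), CXCL1 (12.8 ± 3.34) and CXCL3 (8.77 ± 2.75), where CXCL1 overlapped CXCL3. Without replicate 1 the means of that group were 412, 133, 34.4, 21.5, 10.9 and 7.18 FPKM in the same order of genes. With H2O2, ATG7 KO cells had CXCL8 (1034 ± 21.1 FPKM), CXCL6 (102 ± 1.69), CXCL5 (98.1 ± 1.17), CXCL2 (51.5 ± 3.95), CXCL3 (24.99 ± 1.76) and CXCL1 (8.72 ± 0.994). CXCL6 and CXCL5 stood close there, and counts scaled by library size alone put CXCL5 first of the pair. Such counts also put CXCL5 before CXCL2 in untreated WT cells and CXCL3 before CXCL1 in untreated ATG7 KO cells. By these counts CXCL6 and CXCL5 overlapped in treated WT cells.

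The comparison of untreated cells addresses what differs between the 2 cell lines before the oxidant is added. All 6 chemokines were higher in ATG7 KO than in WT cells and none of their groups overlapped, which held for 22.4% of all genes tested in this direction. In the edgeR quasi-likelihood fit over all genes, the log2 fold change was 3.84 ± 0.20 (standard error) for CXCL5 and 3.78 ± 0.23 for CXCL6, 3.31 ± 0.26 for CXCL8, 2.87 ± 0.22 for CXCL1, 2.57 ± 0.19 for CXCL2 and 2.12 ± 0.24 for CXCL3. In linear terms these fitted differences ran from 4.34-fold for CXCL3 to 14.4-fold for CXCL5. A gene was counted as called when its Benjamini-Hochberg adjusted p was under 0.01, its log2 fold change was beyond 1 and its mean FPKM was above 1 in at least 1 group, and as passed when the adjusted p alone was under 0.01. All 6 members were called higher, beside 2.27% of the 15357 genes tested (1.23% were called lower, and 4.42% and 3.28% passed as higher and lower). The members were chosen with this known, so nothing is read from these shares. Without replicate 1 of untreated ATG7 KO cells the 6 calls held, with log2 fold changes between 1.84 for CXCL3 and 3.70 for CXCL5. CXCL3 lost its call without WT replicate 1, 2 or 3, at values of 2.03, 2.12 and 2.22.

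The comparison of treated cells asks how the cell lines differ after oxidative stress. CXCL5 was higher in ATG7 KO cells by 3.21 ± 0.06 on the log2 scale and CXCL6 by 2.67 ± 0.16, which are 9.23-fold and 6.37-fold. CXCL1 was 0.99 ± 0.13 higher, just under the threshold of 1, and without WT replicate 2 or 3 or without ATG7 KO replicate 2 it was 1.01, 1.005 and 1.09 and was called. CXCL8 differed by 0.49 ± 0.03, CXCL2 by 0.22 ± 0.06 and CXCL3 by 0.15 ± 0.06. Of the 6 members 2 were called higher, beside 3.03% of the 15909 genes tested, and 5 passed, beside 27.7% (4.43% of genes were called lower and 27.9% passed as lower). CXCL3 alone did not pass, CXCL2 did not pass without replicate 1 of either line, and CXCL3 passed without ATG7 KO replicate 2 (0.21). For 5 members the treated groups did not overlap, and 34.7% of all genes tested lay so in this direction.

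In WT cells H2O2 treatment was accompanied by higher levels of 5 members. CXCL8 was 3.79 ± 0.05 higher on the log2 scale (13.9-fold), CXCL3 3.48 ± 0.10 and CXCL2 3.38 ± 0.08 (11.1-fold and 10.4-fold), CXCL5 1.98 ± 0.12 and CXCL1 1.32 ± 0.19. CXCL6 differed by 0.43 ± 0.20 and did not pass, although its treated libraries all lay above the untreated ones. Thus 5 of 6 members were called higher, beside 7.3% of the 15913 genes tested (5.24% were called lower, and 30.9% and 30.1% passed as higher and lower). None of the 6 genes had overlapping groups, and 36.1% of genes lay so in this direction.

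In ATG7 KO cells 4 members were higher and 2 were lower with the same treatment. CXCL3 was 1.51 ± 0.21 higher on the log2 scale, CXCL5 1.35 ± 0.13 and CXCL2 1.04 ± 0.17. These 3 members were called, beside 6.09% of the 15475 genes tested (5.11% were called lower, and 13.6% and 12.4% passed as higher and lower). CXCL2 lost its call without untreated replicate 2 or 3 or any single treated replicate, with log2 fold changes between 0.91 and 1.10. CXCL8 was 0.98 ± 0.24 higher and did not pass. Without untreated replicate 1 its log2 fold change was 1.31 ± 0.03 and it was called, which makes 4 members. CXCL1 and CXCL6 were lower with H2O2, by -0.56 ± 0.20 and -0.67 ± 0.20 on the log2 scale, and did not pass. Without that library CXCL1 was at -0.33 ± 0.12 and CXCL6 at -0.40 ± 0.04, and both passed. The treated libraries lay below the untreated ones without overlap for CXCL1 and CXCL6 and above them for the other 4, and 29.4% and 30.2% of all genes tested lay so in these directions.

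**Figure D2:**
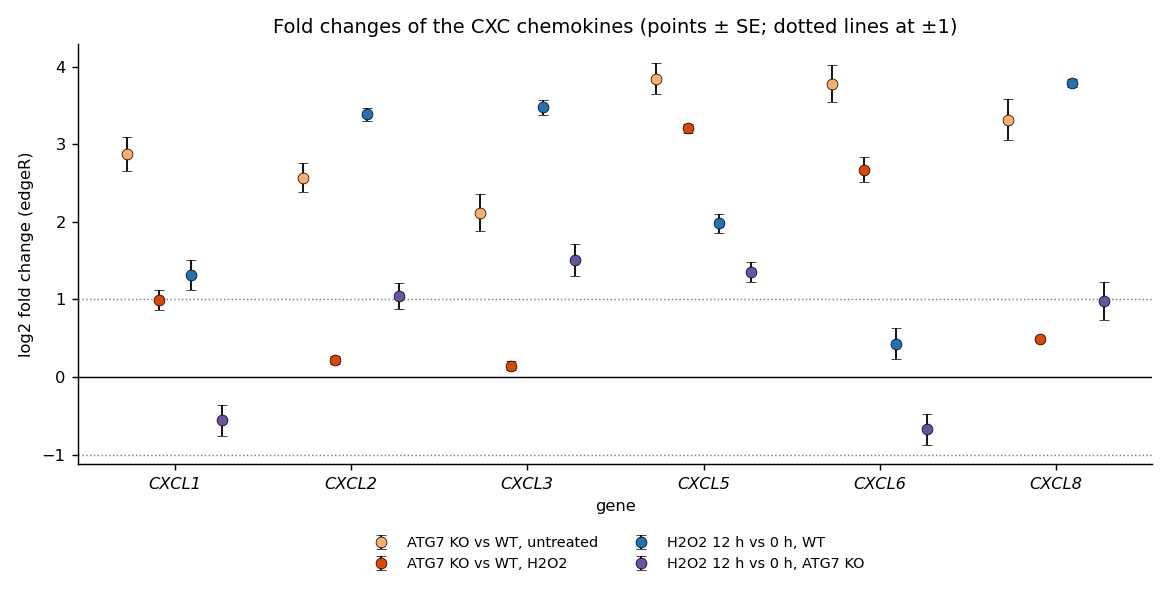
Log2 fold changes (edgeR, points) with standard errors (bars) of the 6 CXC chemokines in the 4 comparisons of groups, with dotted lines at 1 and -1. ATG7 KO cells are higher for all 6 genes when untreated, with values between 2.12 and 3.84, and with H2O2 the values of CXCL2, CXCL3 and CXCL8 are below 0.5 while CXCL5 and CXCL6 stay at 3.21 and 2.67. The pairs of comparisons share libraries and are not independent.

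The difference between the H2O2 responses, ATG7 KO minus WT, was fitted as an interaction over all 12 libraries. It was negative for all 6 members. The log2 value was -2.82 ± 0.26 for CXCL8, -2.34 ± 0.20 for CXCL2, -1.96 ± 0.24 for CXCL3 and -1.87 ± 0.26 for CXCL1. It was -1.10 ± 0.28 for CXCL6 and -0.63 ± 0.21 for CXCL5, which did not pass, and CXCL6 was called without untreated ATG7 KO replicate 2 or 3 (-1.21 in both). So 4 members were called lower, beside 3.24% of the 16856 genes tested (1.93% were called higher, and 7.01% and 7.02% passed as lower and higher). Without untreated ATG7 KO replicate 1 the count stayed at 4, with values between -2.47 for CXCL8 and -1.64 for CXCL1 among them. The median log2 fold change of all genes tested lay between -0.033 and 0.006 in the 5 comparisons.

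Summed over the 6 genes, the chemokines came to 75.1 ± 6.38 FPKM for untreated WT cells (SD, n = 3), 830 ± 22.7 FPKM in treated WT cells, 772 ± 265 FPKM in untreated ATG7 KO cells and 1319 ± 24.0 FPKM in treated ATG7 KO cells. CXCL8 made up 70.1 ± 0.389% of this sum in untreated and 88.3 ± 1.14% in treated WT cells, and 67.5 ± 1.97% and 78.4 ± 0.273% in untreated and treated ATG7 KO cells. The share of CXCL6 was 15.7 ± 0.274% in untreated WT and 21.2 ± 0.980% in untreated ATG7 KO cells, and it was 1.92 ± 0.508% in treated WT against 7.74 ± 0.266% in treated ATG7 KO cells. CXCL5 had 3.52 ± 0.450% in untreated and 1.27 ± 0.195% in treated WT cells, and 5.13 ± 0.746% and 7.44 ± 0.193% in untreated and treated ATG7 KO cells. Treated cells of both lines thus had sums dominated by CXCL8, and those of ATG7 KO cells held a larger share of CXCL5 and CXCL6. The sum of untreated ATG7 KO replicate 1 was the highest of its group at 1077 FPKM, against 599 FPKM in the lowest library, whereas its shares stayed near those of replicates 2 and 3.

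**Figure D3:**
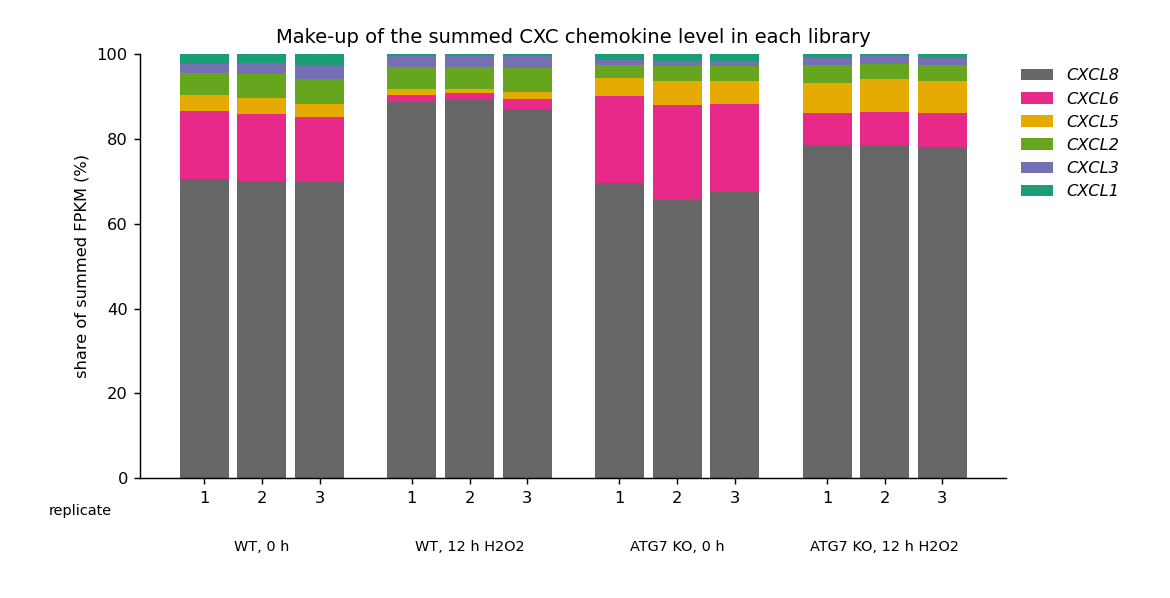
Share (%) of each CXC chemokine in the summed FPKM of the 6 genes, 1 stacked bar for each of the 12 libraries. CXCL8 takes between 65.6% and 89.1% of every bar, and the CXCL6 band is narrowest in treated WT cells (1.92 ± 0.508%, SD, n = 3) and widest in untreated ATG7 KO cells (21.2 ± 0.980%).

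The region within 100 kb of the cluster holds 19 annotated genes, of which 13 are not among the 6. Only MTHFD2L, a mitochondrial folate enzyme gene at the CXCL2 end, had a mean above 1 FPKM in any group. It stood at 0.811 ± 0.0889 FPKM in untreated WT, 1.22 ± 0.102 in treated WT, 2.03 ± 0.177 in untreated ATG7 KO and 1.94 ± 0.153 in treated ATG7 KO cells. In untreated cells it was called higher in ATG7 KO than in WT (log2 fold change 1.32 ± 0.13, edgeR adjusted p = 0.00079), as its chemokine neighbours were. Between treated cells it was 0.66 ± 0.10 higher in ATG7 KO cells (edgeR adjusted p = 1.29e-06). It passed as higher with H2O2 in WT cells (0.59 ± 0.12, edgeR adjusted p = 5.51e-05) and did not pass for H2O2 in ATG7 KO cells (-0.07 ± 0.11). The platelet chemokine genes in the cluster were at the floor. PPBP had 8 reads and PF4 had 1 read in the 12 libraries together, and PF4V1 had 0.

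**Figure D4:**
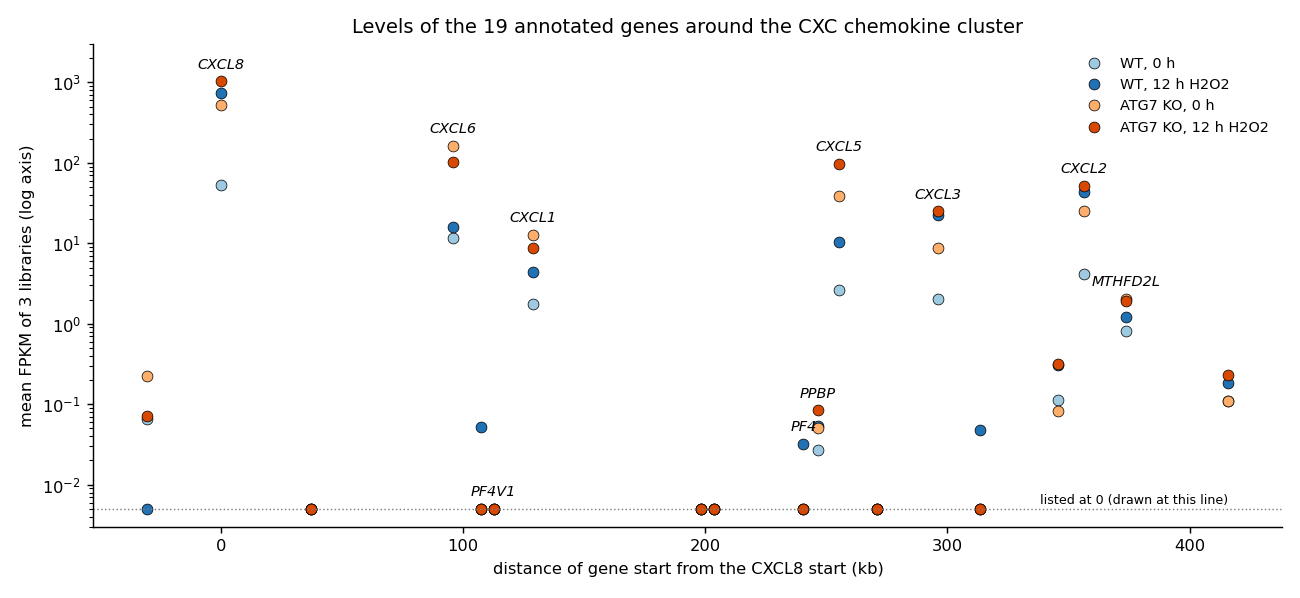
Mean FPKM (3 libraries, log axis) of the 19 annotated genes within 100 kb of the CXC chemokine cluster, against the distance of each gene's start from that of CXCL8 in kb, with 1 colour for each group. The 6 chemokines and MTHFD2L lie above 1 FPKM in at least 1 group, and the platelet chemokine genes between them lie near the line that marks values listed at 0.

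The receptors of these ligands were measured at low levels. CXCR1 had at most 6 reads in any library and 9 reads in the 12 libraries together. CXCR2 had 2, 0 and 0 reads in the untreated WT libraries and 0 reads in each untreated ATG7 KO library. With H2O2 it had between 24 and 27 reads in WT and between 42 and 49 reads in ATG7 KO cells, or 0.475 ± 0.0224 and 0.833 ± 0.0483 FPKM (SD, n = 3). The treated libraries of both lines were therefore above all untreated ones, and CXCR2 passed for H2O2 in WT cells (edgeR adjusted p = 1.80e-09) and in ATG7 KO cells (edgeR adjusted p = 0.00034). All 10 CXC and atypical chemokine receptors stayed below 1 FPKM in every group. Of these, 3 were tested between treated cells and 2 passed as higher in ATG7 KO cells, 1 passed as higher with H2O2 in each cell line, and none passed between untreated cells or in the interaction. When untreated ATG7 KO replicate 1 was left out, 1 passed as lower between untreated cells and 2 as higher with H2O2 in ATG7 KO cells. With every library kept, 27.7% of all genes passed as higher between treated cells. With H2O2 this share was 30.9% in WT and 13.6% in ATG7 KO cells.

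Among the 11 other CXC ligands only CXCL12 and CXCL16 reached a mean of 1 FPKM. CXCL12, the ligand of CXCR4, was called higher in ATG7 KO cells both untreated (2.43 ± 0.380 against 0.725 ± 0.00838 FPKM, log2 fold change 1.74 ± 0.16, edgeR adjusted p = 0.00060) and treated (1.48 ± 0.12, edgeR adjusted p = 4.59e-12), and its value for H2O2 was 0.29 ± 0.17 in WT and 0.03 ± 0.15 in ATG7 KO cells, neither of which passed. CXCL16, a membrane-bound ligand of CXCR6, was called higher with H2O2 in ATG7 KO cells (2.05 ± 0.17, edgeR adjusted p = 0.00017) and passed in WT cells (0.77 ± 0.19). Its interaction of 1.28 ± 0.22 (edgeR adjusted p = 0.0013) had the sign opposite to that of all 6 neutrophil-attracting members.

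The cytokines known to induce these chemokines, and those made with them, were read from a list of 16 genes with their receptors. IL1A had 6.46 ± 0.955 FPKM (SD, n = 3) in untreated WT, 89.1 ± 5.33 in treated WT, 25.6 ± 3.79 in untreated ATG7 KO and 78.9 ± 2.18 in treated ATG7 KO cells, so that untreated WT cells were lowest and untreated ATG7 KO cells lay between them and the treated cells, as for CXCL2 and CXCL3. IL1B had 6.04 ± 0.523, 111 ± 4.36, 51.1 ± 11.5 and 472 ± 21.8 FPKM in the same groups. IL6, a cytokine of the acute phase, had 2.33 ± 0.587, 64.2 ± 3.40, 18.3 ± 5.57 and 115 ± 4.43 FPKM. TNF, the other classical inducer, had between 12 and 32 reads in treated WT libraries, at most 8 reads in untreated ATG7 KO libraries and 0 reads in untreated WT and treated ATG7 KO libraries.

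In untreated cells 5 of the 12 genes of this list that were tested were called higher in ATG7 KO cells (IL1A, IL1B, IL6, CSF2 and CSF3), 7 passed as higher and 0 as lower, with a median log2 fold change of 0.89 beside 0.006 for all genes. The value was 6.25 ± 0.49 for CSF3, the granulocyte colony-stimulating factor (edgeR adjusted p = 0.00037), and 2.76 ± 0.25 for CSF2 (edgeR adjusted p = 0.00069). Between treated cells 4 of 14 were called higher (IL1B, IL1R1, CSF2 and CSF3) and LIF was called lower (-1.77 ± 0.11, edgeR adjusted p = 0.00012). H2O2 in WT cells came with 6 of 14 called higher (IL1A, IL1B, IL6, LIF, CSF2 and CSF3, log2 fold changes between 3.78 and 7.85), and H2O2 in ATG7 KO cells with 7 of 12 (the same 6 between 1.36 and 3.91, and IL1RAP at 1.26), where IL17RC was called lower (-1.08 ± 0.13), a call lost without treated replicate 1. In the interaction 5 of 14 were called lower (IL1A, IL6, LIF, CSF2 and CSF3), 8 passed as lower and 0 as higher, and CSF2 did not pass without untreated WT replicate 1. Without untreated ATG7 KO replicate 1, 6 of 13 were called higher in untreated cells, 7 of 13 with H2O2 in ATG7 KO cells, and 5 lower in the interaction. With every library kept, 2.27% of all genes were called higher between untreated and 3.03% between treated cells. With H2O2, 7.3% were called higher in WT and 6.09% in ATG7 KO cells, and 3.24% were called lower in the interaction. These and the other shares given with the chemokine comparisons also stand beside the lists that follow.

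NF-κB subunits and inhibitors formed a list of 14 genes. NFKBIA, the inhibitor IκBα that NF-κB itself induces, had 52.2 ± 2.83 FPKM (SD, n = 3) in untreated WT, 155 ± 6.31 in treated WT, 133 ± 29.4 in untreated ATG7 KO and 97.8 ± 4.24 in treated ATG7 KO cells. TNFAIP3, or A20, another induced inhibitor, had 9.62 ± 0.236, 108 ± 7.72, 20.8 ± 2.84 and 74.9 ± 2.23 FPKM. Both were called higher in untreated ATG7 KO than WT cells (1.34 ± 0.16 and 1.11 ± 0.13 on the log2 scale, edgeR adjusted p = 0.0020 and 0.0015), and no other gene of the list was. Without any single untreated WT library neither was called. Between treated cells none was called, 3 passed as higher and 7 as lower in ATG7 KO cells, NFKBIA at -0.67 ± 0.04 and TNFAIP3 at -0.53 ± 0.04 among the latter. Of all genes 27.7% passed as higher and 27.9% as lower in that comparison. H2O2 in WT cells came with 5 of 14 called higher (NFKBIA, NFKBIB, NFKBIE, NFKBIZ and TNFAIP3) and BCL3 lower, where NFKBIB (1.04 ± 0.06) was at 0.99 and not called without untreated replicate 1 or treated replicate 1 or 2, and H2O2 in ATG7 KO cells with TNFAIP3 and NFKBIZ called higher. In the interaction 4 were called lower (NFKB1, NFKBIA, NFKBIE and TNFAIP3) and 7 passed as lower, with NFKB1 short of the threshold without untreated ATG7 KO replicate 2 (-0.97) or 3 (-0.98). Without untreated ATG7 KO replicate 1 the calls of this list numbered 2 in untreated cells, 2 with H2O2 in ATG7 KO cells and 4 in the interaction.

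Of 11 AP-1, C/EBP and early transcription factor genes, CEBPB and CEBPD were called higher and ATF3 lower in untreated ATG7 KO cells, none of which was called when a single untreated WT library was left out. CEBPB, which acts on the CXCL8 promoter, stood at 45.5 ± 2.003 FPKM (SD, n = 3) in untreated WT, 159 ± 11.9 in treated WT, 98.8 ± 23.7 in untreated ATG7 KO and 163 ± 6.49 in treated ATG7 KO cells. Its treated groups did not pass as different (0.03 ± 0.04 on the log2 scale, edgeR adjusted p = 0.59). With H2O2, 5 genes were called lower in ATG7 KO than in WT cells (FOS, FOSB, JUNB, EGR1 and ATF3) and none higher, and the value for FOS was -3.99 ± 0.19. In WT cells 7 were called higher with H2O2 (FOS, FOSB, JUN, JUNB, ATF3, CEBPB and EGR1), and in ATG7 KO cells 3 (FOSB, JUN and ATF3), with CEBPD called lower. FOSB lost that call without untreated ATG7 KO replicate 1 or 2 or any single treated replicate. Without untreated ATG7 KO replicate 1 the AP-1 list had 1 gene called higher in untreated ATG7 KO cells and 2 with H2O2 in ATG7 KO cells. In the interaction 5 were called lower (FOS, FOSB, JUNB, EGR1 and CEBPB), and CEBPB fell short of the threshold (-0.86) without untreated ATG7 KO replicate 1.

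AU-rich letters in the 3′ UTR are known to mark short-lived mRNAs, and the pentamer ATTTA occurred between 5 times (CXCL1) and 11 times (CXCL5) in the 3′ UTRs of the 6 members, with 10 in CXCL2, 9 in CXCL8, 7 in CXCL3 and 6 in CXCL6. The median over 18721 protein-coding genes was 1, and 24.0% of them held at least 5 and 8.70% at least 11. UTR lengths differ between genes and were not corrected for. Of 7 genes listed for mRNA decay and stability, ZFP36, or tristetraprolin, was called lower in treated ATG7 KO than WT cells (4.68 ± 0.251 against 20.6 ± 0.870 FPKM, -2.15 ± 0.08 on the log2 scale, edgeR adjusted p = 4.60e-20). ZC3H12A, the RNase regnase-1, was called higher in untreated ATG7 KO cells (33.4 ± 3.30 against 9.65 ± 0.225 FPKM, 1.79 ± 0.11, edgeR adjusted p = 0.00018). H2O2 in WT cells came with 4 of 7 called higher (ZFP36, ZFP36L1, ZFP36L2 and ZC3H12A) and in ATG7 KO cells with ZFP36L1 and ZFP36L2, and the interaction with 3 called lower (ZFP36, ZFP36L2 and ZC3H12A). Without untreated ATG7 KO replicate 1 the calls of this list numbered 1 in untreated cells, 2 with H2O2 in ATG7 KO cells and 3 in the interaction.

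**Figure D5:**
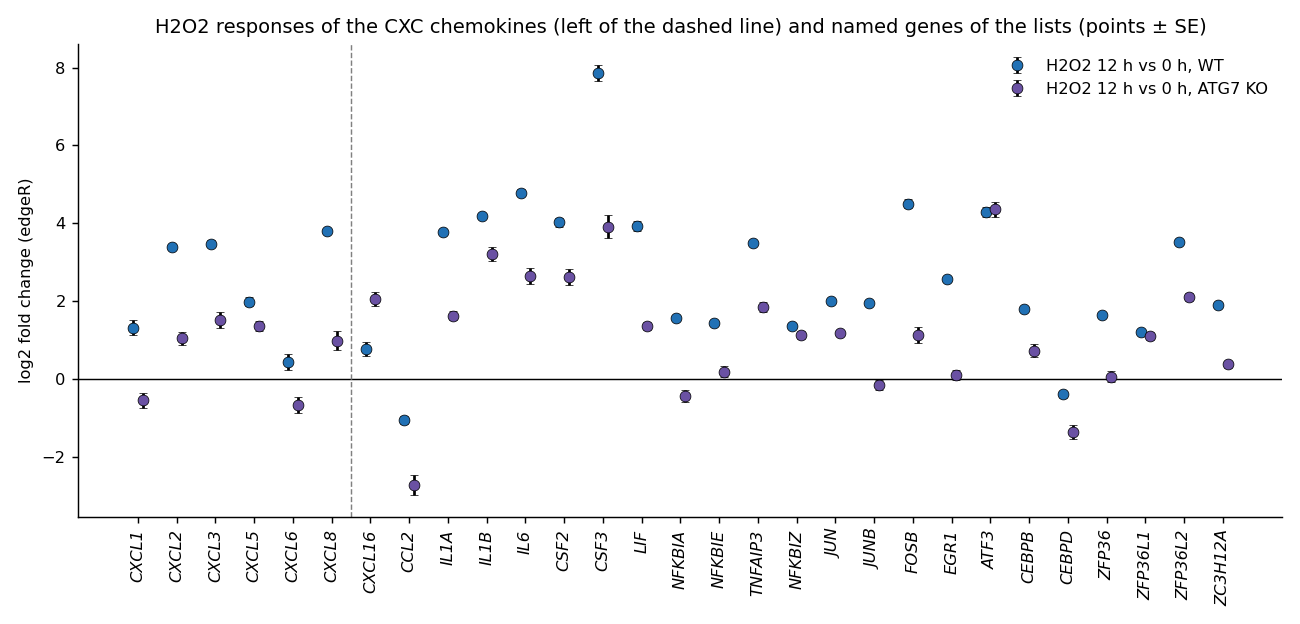
Log2 fold changes with H2O2 at 12 h against 0 h (edgeR, points ± standard error) in WT and ATG7 KO cells, for the 6 CXC chemokines on the left of the dashed line and for named genes of the lists on the right. For CXCL8 the points stand at 3.79 and 0.98 and for IL6 at 4.78 and 2.65, while those of ATF3 coincide (4.28 and 4.36) and CXCL16 has the higher point in ATG7 KO cells.

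The patterns of the members over the 12 libraries were compared by the root-mean-square difference of log2 counts scaled by library size, each gene centred on its own mean. It was computed with all 12 libraries, and it grows with how much a gene itself varied. Among the members the smallest difference was that of CXCL2 and CXCL3 (0.24), followed by CXCL2 and CXCL8 (0.31) and CXCL3 and CXCL8 (0.46). CXCL1 was nearest to CXCL6 (0.76), not to its paralogs CXCL2 (0.97) and CXCL3 (1.14), and the largest difference was that of CXCL3 and CXCL6 (1.71). CXCL5 was nearest to CXCL6 (0.92). The patterns thus grouped CXCL2, CXCL3 and CXCL8 apart from CXCL1 and CXCL6. CXCL2 with CXCL3, and CXCL5 with CXCL6, are also close by coding sequence, whereas CXCL1 and CXCL8 were placed differently.

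Outside the 6 members, 13301 genes with a mean above 1 FPKM in at least 1 group were ranked by the same measure. Nearest to CXCL3 were DUSP6, a phosphatase of ERK (0.23), IL1A (0.25) and TRIB1 (0.36). DUSP6 (0.35) and IL1A (0.36) were also among the 3 nearest to CXCL2, after the transcription factor SOX7 (0.32), and SOX7 (0.40) was among those of CXCL8, between the lipase LIPG (0.38) and PTHLH (0.41). Nearest to CXCL1 were the keratin KRT17 (0.25), HTRA3 (0.30) and ALOX5AP (0.32). CXCL6 had INAVA (0.35), the dipeptidyl peptidase DPP4 (0.41) and the BMP antagonist GREM1 (0.41), and CXCL5 had SCG5 (0.42), DHRS2 (0.44) and SRPX (0.49). The root-mean-square deviation of the member itself was 1.07 for CXCL1, 1.43 for CXCL2, 1.46 for CXCL3, 1.65 for CXCL6, 1.69 for CXCL8 and 1.96 for CXCL5, so the distances of different members are not on one scale.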

How the data were processed

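Total RNA of HLE-B3 cells was made into libraries with a NEBNext Ultra kit, and the submitters' processing notes name HISAT2 2.0.5, featureCounts 1.5.0-p3 and GRCh38. The deposited counts are whole reads per gene, not normalized, and the authors made the deposited FPKM from them by gene length and library size. Checked against the counts, each FPKM library differed by 1 factor between 0.949 and 1.02. The strand setting of the counting is not given in the sources used here. Counts were analysed with edgeR 4.0.16 in R 4.3.3 (filterByExpr with a minimum count of 10, TMM, robust quasi-likelihood fit, Benjamini-Hochberg adjustment over all genes tested), 2 groups at a time without covariates, and the interaction over all 12 libraries. The procedure was tested on simulated data. Standard errors of the edgeR fold changes were back-calculated as the absolute log2 fold change over the square root of the quasi-likelihood F value. They do not carry the degrees of freedom of the test, which differ between genes. Library totals between 15602183 and 17659496 reads limit the precision of genes with few reads. The p values set the difference between groups against the spread between the 3 replicates of each group, moderated over all genes. They do not cover differences between clones. No columns of per-sample values were left unused. The 6 members, the gene lists and the alternatives were chosen with earlier results of these data known. Named are all members, list genes above 1 FPKM that were called, IL1A, IL1B, IL6, NFKBIA, TNFAIP3, CXCR1 and CXCR2 in any case, genes above 1 FPKM within 100 kb of the cluster, and the 3 genes nearest to each member in pattern. MTHFD2L and the likeness genes follow that rule. TNF, PPBP, PF4, PF4V1, single receptors at the floor and single markers that were not called were named after their values were seen. Promoter windows were taken from RefSeq (GRCh38.p14), where all 6 symbols matched, and transcripts from GENCODE release 29. Coding sequences were aligned globally with Biopython 1.88. Alternatives were RLE and upper quartile scaling, DESeq2 1.42.0, no count filter, fits over all 12 libraries, a block for the replicate number, leaving out each library in turn, and limma 3.58.1 on log2 of the deposited FPKM plus 1 or 0.1.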

Additional observations from a re-analysis of the deposited data

Results flagged for a closer look

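These results were singled out because the response to H2O2 differed between ATG7 KO and WT cells in the test of the difference itself (edgeR interaction over 12 libraries, called as in the comparisons of groups). Values are log2 differences, ATG7 KO minus WT. Among the chemokine members, which were chosen with this known, they were -1.87 for CXCL1, -2.34 for CXCL2, -1.96 for CXCL3 and -2.82 for CXCL8. Among the other chemokines the value was -1.68 for CCL2 and 1.28 for CXCL16, the only positive one of the called genes of the lists. Cytokines stood at -1.41 for CSF2, -3.93 for CSF3, -2.16 for IL1A, -2.13 for IL6 and -2.57 for LIF. NF-κB genes stood at -1.05 for NFKB1, -2.01 for NFKBIA, -1.25 for NFKBIE and -1.64 for TNFAIP3. For transcription factor genes the values were -1.08 for CEBPB, -2.45 for EGR1, -3.51 for FOS, -3.36 for FOSB and -2.10 for JUNB. Genes listed for mRNA decay and stability had -1.52 for ZC3H12A, -1.58 for ZFP36 and -1.42 for ZFP36L2. CD14, a marker of myeloid cells, had -2.38, with group means of at most 1.80 FPKM.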

How the results depend on the processing

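Over the 14 alternatives of each comparison of groups and the 19 of the interaction, no member changed the sign of its fold change, and the counts of members called stayed within 1.5 times the reported ones: between 5 and 6 in untreated cells, 2 and 3 between treated cells, 4 and 5 with H2O2 in WT cells, 2 and 4 with H2O2 in ATG7 KO cells, and 4 and 5 in the interaction. Calls of members that changed without a single library are given with the comparisons above. The interaction of IL1B (-0.98) went past the threshold without untreated WT replicate 2, treated WT replicate 1, untreated ATG7 KO replicate 2 or 3, or treated ATG7 KO replicate 1. CXCL1 between treated cells was called without the count filter (1.02), CXCL1 in WT cells was not called by limma on log2(FPKM + 1) (0.97), and CXCL2 in ATG7 KO cells was not called under upper quartile scaling (0.98). The interaction of CXCL6 was called under upper quartile scaling (-1.13), DESeq2 (-1.10) and no count filter (-1.07). The causes of these changes were not tested. A pairing of replicates is not given in the sources used here, and the main fits assumed none. Same-numbered libraries deviated from their group means with correlations between -0.069 and 0.098 over 18 pairs. With 3 libraries per group these cannot decide whether replicates were paired. With the replicate block the members called were 6, 2, 5, 4 and 4 in the order above, since CXCL8 was called with H2O2 in ATG7 KO cells (1.04), and among all genes 394 were called between untreated cells in place of 538. Over all genes limma on log2(FPKM + 1) called 575, 290, 1133, 1082 and 498 genes (treated, untreated, H2O2 in WT, H2O2 in ATG7 KO, interaction) against 1187, 538, 1995, 1734 and 871, a scale on which low genes have smaller fold changes. Between untreated cells 251, 242 and 245 genes were called without WT replicate 1, 2 and 3. Shares of the summed level by counts scaled to library size in place of FPKM put CXCL8 at between 69.0% and 90.1% of the group sums.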

Other observations

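Of the 22 CC, CX3C and XC ligands, 1 of 4 tested was called lower with H2O2 in WT cells and 2 of 5 in ATG7 KO cells. Of all genes 5.24% and 5.11% were called lower there. None of these ligands was called higher with H2O2. CCL2, the monocyte attractant MCP-1, had 27.1 ± 2.68 FPKM (SD, n = 3) in untreated WT, 13.1 ± 2.07 in treated WT, 66.2 ± 23.0 in untreated ATG7 KO and 9.94 ± 1.66 in treated ATG7 KO cells. It was called lower with H2O2 in WT (-1.05 ± 0.09 on the log2 scale, edgeR adjusted p = 7.57e-09) and in ATG7 KO cells (-2.74 ± 0.26, edgeR adjusted p = 0.00029), where CXCL2, CXCL3 and CXCL5 were called higher. Without treated WT replicate 1 no CC gene was called in WT cells. In untreated cells CCL2 was called higher in ATG7 KO (1.28 ± 0.23, edgeR adjusted p = 0.0098), a call that was lost without any single untreated library, and its interaction was called lower (-1.68 ± 0.29), as for CXCL1, CXCL2, CXCL3 and CXCL8. CCL7, another monocyte attractant, was called lower with H2O2 in ATG7 KO cells (1.19 ± 0.136 to 0.181 ± 0.140 FPKM), and CCL26 was called lower in treated ATG7 KO than WT cells (0.860 ± 0.402 against 2.24 ± 0.254 FPKM). Both calls were lost when treated ATG7 KO replicate 2 or 3 was left out, and that of CCL7 also without untreated ATG7 KO replicate 2 or 3. The other 19 of the 22 CC, CX3C and XC ligands stayed at or below 1 FPKM in every group.

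Of the 9 fibroblast markers, 6 of 6 tested passed as lower with H2O2 in WT cells, beside 30.1% of all genes. COL1A1 and COL1A2, the chains of type I collagen, and PDGFRB, a receptor of platelet-derived growth factor, were called (-1.21 ± 0.04, -1.06 ± 0.07 and -1.10 ± 0.09 in log2 units). Of 7 tested in ATG7 KO cells, 5 passed as lower with H2O2, beside 12.4% of all genes. PDGFRB (-1.92 ± 0.21) and LUM (-1.28 ± 0.18) were called in these cells, the latter not without treated replicate 1 or 2. There 6 passed and 3 were called without untreated ATG7 KO replicate 1. LUM, a matrix proteoglycan, was also called higher in ATG7 KO than WT cells untreated (9.52 ± 1.92 against 0.168 ± 0.0525 FPKM) and treated (3.93 ± 0.584 against 0.129 ± 0.0612 FPKM), and no other fibroblast marker was called between the cell lines. Untreated COL1A1 stood at -0.52 ± 0.16, which did not pass, and FAP passed as higher in untreated ATG7 KO cells (0.92 ± 0.11). Between treated cells 3 markers passed as higher in ATG7 KO cells, LUM, FAP (0.89 ± 0.10) and COL1A2 (0.25 ± 0.07). COL1A1 (-0.17 ± 0.03) and THY1 (-0.56 ± 0.04) passed as lower there. Of all genes 27.7% passed as higher and 27.9% as lower between treated cells.

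CRYAB, the small heat shock protein αB-crystallin, was called higher with H2O2 in WT cells (0.172 ± 0.0345 to 1.65 ± 0.292 FPKM). It also passed as higher with H2O2 in ATG7 KO cells (5.98 ± 0.58 on the log2 scale, edgeR adjusted p = 0.00034). It was not called there because its treated mean of 0.940 ± 0.0690 FPKM was below 1. LYZ, lysozyme, was called lower with H2O2 in WT cells (-2.06 ± 0.35 on the log2 scale) and lower in untreated ATG7 KO than WT cells (0.108 ± 0.0943 against 1.29 ± 0.267 FPKM), a call lost without any single untreated WT library and without untreated ATG7 KO replicate 3. CD14 was called lower in treated ATG7 KO than WT cells (-1.14 ± 0.30), but not without treated ATG7 KO replicate 1, and lower with H2O2 in ATG7 KO cells (-1.65 ± 0.28), but not without untreated replicate 3 or treated replicate 1 or 3. Of 5 leukocyte markers tested with H2O2 in WT cells, ITGAM (3.53 ± 0.31) and CSF1R (2.56 ± 0.36) passed as higher. LYZ and PTPRC (-2.14 ± 0.59) passed as lower there. Among all genes 30.9% passed as higher and 30.1% as lower in that comparison.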
